A study of Mus musculus with 3 samples.

Results

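The cells described here were marrow stromal cells of growing mouse long bone that carried leptin receptor markers and abundant Cxcl12 but no count of 3 interferon-induced genes. They were chosen by a gate on their own unique molecular identifier (UMI) counts. Barcodes counted as cells when they had no fewer than 1500 detected genes (metaphyseal libraries) or 1000 (Pdgfra-GFP library), with mitochondrial genes taking up to 15% and ribosomal protein genes up to 30% of their UMIs. A kept cell was a member when it held at least 2 of Lepr, Adipoq, Kitl and Esm1, at least 10 UMIs of Cxcl12, at most 1 UMI of the endothelial genes Pecam1 and Cdh5 together, at most 1 UMI of the haematopoietic genes Laptm5 and Tyrobp together, and 0 UMIs of Cxcl9, Cxcl10 and Iigp1. They are called zero-count Lepr Cxcl12 cells below, after the 0 UMIs of those 3 genes, and there were 2706 of them among 15628 kept cells. A count of 0 describes what was sequenced in a cell, and does not show that the genes were silent in it. The cells were not free of UMIs of interferon-response genes, since an Isg15 UMI, for example, was found in 43.7, 46.8 and 43.1% of them in the 3 libraries. In cells gated by erythroid markers (defined below) the share was 76.9, 42.9 and 60.4%. In metaphyseal-gated cells (also defined below) it was 29.5, 23.6 and 28.4%. Both of these populations were deeper than the zero-count cells. The shares differ between gates and with depth, so they are not read as expression. The part of free RNA in them was not tested.

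In all, 3 droplet libraries of untreated, 3-week-old C57BL/6 mice (C57BL/6J for the wild-type bones per the study's methods) were deposited, all made with the 10x Chromium system. The labels name the V2 and V3 chemistry without saying which library used which, and the methods name V3. Both metaphyseal libraries came from the dissected metaphysis of wild-type femur and tibia, after magnetic depletion of lineage-positive, CD45+ and CD117+ cells. The Pdgfra-GFP library came from the metaphysis and epiphysis of mice with a nuclear H2B-GFP knocked in at the Pdgfra locus, whose GFP+ cells were sorted by flow cytometry. Males were used, and the number of animals pooled in a library is not given in the sources used here, so the spread between libraries may be technical. Genotype, region, sort and depth all differ between the Pdgfra-GFP library and the other two, the chemistry may differ, and these cannot be told apart.

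The metaphyseal libraries held 25243314 and 22082735 UMIs, and the Pdgfra-GFP library held 91747759. Zero-count cells numbered 343 of 2382 kept cells in metaphyseal replicate 1 (14.4%, exact 95% binomial interval 13.0 to 15.9%). They numbered 310 of 2004 in metaphyseal replicate 2 (15.5%, 13.9 to 17.1%) and 2053 of 11242 in the Pdgfra-GFP library (18.3%, 17.6 to 19.0%). These intervals cover counting error only, and the depletion and the sort also set the shares. Their median depth was 5558, 5518.5 and 3673 UMIs per cell in the same order, with 3.26, 3.33 and 0.899% mitochondrial UMIs. No zero-count cell shared a barcode with one of another library, while 9 and 10 of all kept barcodes of the metaphyseal libraries recurred in the Pdgfra-GFP library. Independent draws from 1 barcode list would give 3.94 and 3.32, and the cause of the excess was not tested. The doublet caller Scrublet marked 1, 2 and 66 of the zero-count cells. Of all kept cells it marked 1.09, 0.848 and 1.45%, under the 1.91, 1.60 and 8.99% expected from the number of cells. Doublets may therefore have been missed, most of all in the Pdgfra-GFP library.

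As background, stromal cells with leptin receptor form a network around marrow sinusoids. They secrete Cxcl12, the chemokine that holds blood stem cells and B cell progenitors in the marrow, and Kitl, the stem cell factor that those cells need. They also carry adipocyte-lineage genes such as Adipoq and can give rise to osteoblasts and marrow adipocytes. Interferons act through receptors on the cell surface and induce a broad set of antiviral and antigen-presentation genes, among them the chemokines Cxcl9 and Cxcl10 and the GTPase Iigp1.

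The label was checked against 7 markers. Levels are in CPM, the summed UMIs of a gene per 1000000 UMIs of the population in a library. The first 5 markers were used by the gate, so their levels are a description. Cxcl12 (chromosome 6, 117168535 to 117181367, build mm10) stood at 21123 and 21032 CPM in the metaphyseal libraries and 18729 in the Pdgfra-GFP library. Lepr (chromosome 4, 101717404 to 101815352) stood at 700.0, 671 and 373, and Adipoq (chromosome 16, 23146536 to 23158028) at 2413, 2422 and 3709. Kitl stood at 1483, 1495 and 553, and Esm1, a proteoglycan better known from endothelium, at 1078, 1180 and 689. Both replicate libraries lay close together for all 5 genes, with the Pdgfra-GFP library lower for 4 of them and higher for Adipoq.

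Il1rn, the interleukin 1 receptor antagonist, and Gas6, a ligand of the TAM receptor kinases, are markers that the gate did not use. Il1rn stood at 361, 423 and 237 CPM in zero-count cells. In metaphyseal-gated cells, which held at least 2 of Postn, Wif1, Kcnk2 and Ncam1 and at most 1 of the Lepr set, Il1rn stood at 16.9, 16.2 and 16.4. Gas6 stood at 2707, 2629 and 1925 against 197, 236 and 315. For both genes every zero-count value lay above every metaphyseal-gated value. The log2 difference was 4.11 ± 0.31 (SE) for Il1rn (adjusted p = 1.25e-06, quasi-likelihood F test of edgeR, Benjamini-Hochberg over all genes) and 3.17 ± 0.36 for Gas6 (adjusted p = 2.68e-05, same test). Il1rn and Gas6 were thus higher in zero-count cells in all 3 libraries.

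**Figure D1:**
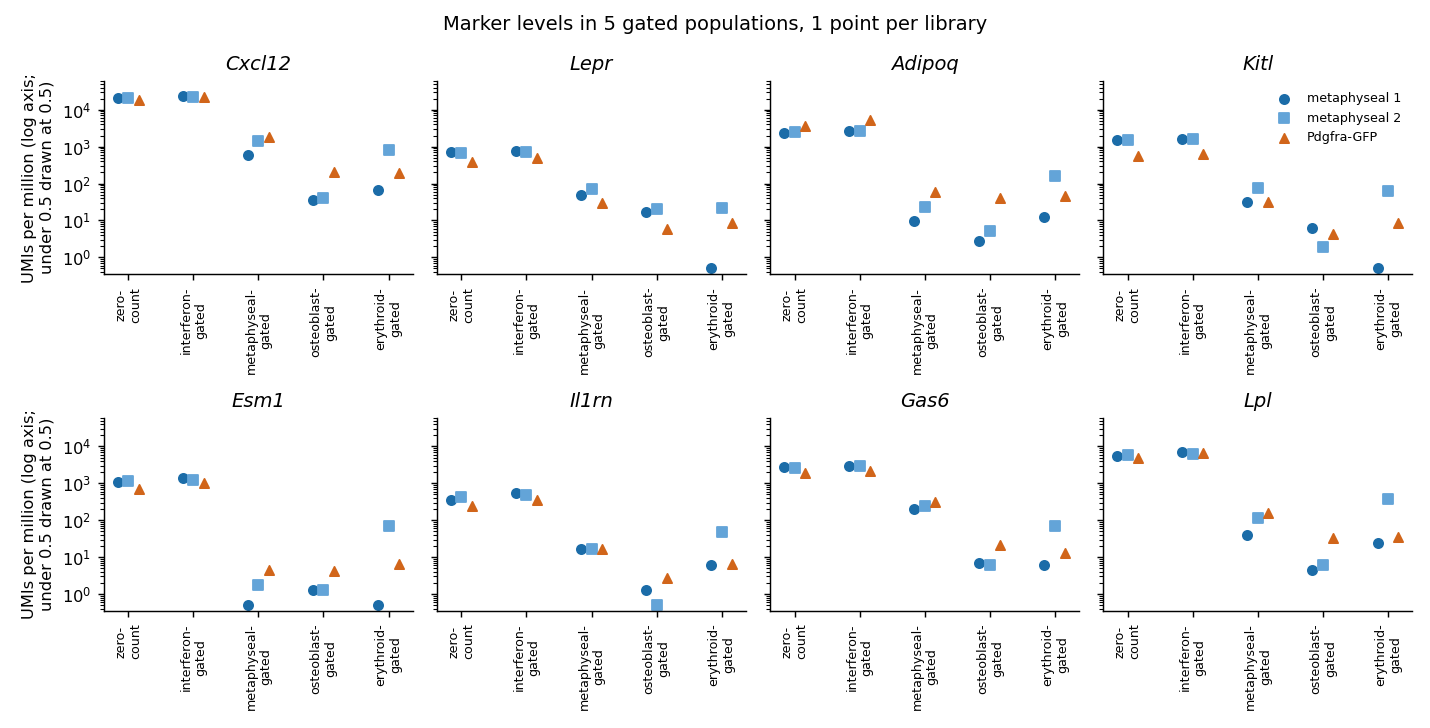
Levels of 7 marker genes and of Lpl (y axis, CPM on a log axis) in 5 gated populations (x axis), with 1 point per library. Zero-count and interferon-gated cells sit together at the top for every gene, and the metaphyseal-gated, osteoblast-gated and erythroid-gated cells lie lower in all 3 libraries.

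Free RNA in the droplets was gauged in erythroid-gated cells, which held at least 2 of 4 erythroid marker genes and should lack stromal genes, and in barcodes of at most 100 UMIs. Erythroid-gated cells numbered 13, 14 and 53, with median depths of 11521, 11831.5 and 8128 UMIs. They were not a clean blank in the metaphyseal libraries, where haematopoietic markers summed to 41506 and 63566 CPM in them, against 128 in the Pdgfra-GFP library, and osteoclast markers to 1156 in replicate 1. Lepr stood at 0, 21.2 and 8.51 CPM in them, far under its level in zero-count cells. Bglap, the osteocalcin gene of mature osteoblasts, stood at 877, 522 and 4028 CPM in zero-count cells against 6.18, 8.48 and 7637 in erythroid-gated cells. In the Pdgfra-GFP library a Bglap UMI was found in 86.8% of zero-count and 94.3% of erythroid-gated cells. Bglap in the zero-count cells of the Pdgfra-GFP library is therefore not read as expression.

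By summed UMIs, the leading genes outside the mitochondrial and ribosomal protein genes were Malat1, Cxcl12, Gm42418, Tmsb4x, Igfbp4, Sparc, Fth1, H2-D1, Lpl and Hp. The next 10 were Apoe, Spp1, Igfbp5, Col1a2, B2m, Col1a1, Igfbp7, Cst3, Tmem176b and Actb. Several of them differed between library types. Gm42418, a locus with ribosomal RNA sequence, stood at 16164, 17274 and 644 CPM. B2m, the light chain of MHC class I, stood at 2692, 2742 and 6984, and Sparc, a collagen-binding matrix protein, at 5855, 5889 and 11113. Over 3432 genes with at least 50 CPM, the log2 ratio of the metaphyseal replicates had an SD of 0.229, with 99.9% of genes within 2-fold, whereas the ratio of the Pdgfra-GFP library to the metaphyseal mean had an SD of 0.660, with 90.1% within 2-fold.

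Some genes were concentrated in these cells. Zero-count cells held 11.3% of the UMIs of all kept cells on average over libraries. They held 44.8% of all UMIs of Kcnq3, a potassium channel subunit, and 42.3% of those of Gzme, a granzyme. They held 40.6% of the UMIs of Ptgfr, the prostaglandin F receptor, 40.3% of Kng2 and 39.4% of Kng1, both kininogens. None of the 5 passed against interferon-gated Lepr Cxcl12 cells, which held at least 2 UMIs of the 3 interferon genes. Kcnq3 stood there at 20.48, 21.04 and 7.86 CPM, against 26.9, 26.5 and 9.09 in zero-count cells.

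The main comparison set zero-count cells against metaphyseal-gated cells, 61, 55 and 1300 of them, which are stromal cells with genes of the metaphysis, the zone under the growth plate. Counts were summed per library and population, genes of any gate were left out of the tests, and the library was a block. Of 12344 genes tested, 1586 were higher in zero-count cells, which is 12.8% of the genes tested, and 1861 were lower, which is 15.1%, at an adjusted p of 0.05. The gates select cells on genes that vary with many others, so a call says that a gene goes with the gates in all libraries together. Without metaphyseal replicate 2 the total fell from 3447 to 2282. With library sizes alone in place of TMM scaling, chosen after seeing the data, 1995 genes were higher and 1394 lower, and the median log2 difference over all genes moved from -0.01 to 0.11. Metaphyseal-gated cells were deeper, with medians of 10413, 10250 and 6209 UMIs, and when all cells were thinned to 2000 UMIs 2089 genes were called.

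The strongest rises were of mixed function. Lpl (chromosome 8, 68880491 to 68907448), the lipase that frees fatty acids from lipoproteins, stood at 5451, 5706 and 4958 CPM against 40.8, 112 and 161. Its log2 difference was 5.71 ± 0.53 (adjusted p = 5.7e-06, edgeR's quasi-likelihood test). Il34, a second ligand of the Csf1 receptor, stood at 244, 267 and 264 against 0, 5.41 and 10.3, and Bmp4, a bone morphogenetic protein, at 246, 283 and 157 against 7.03, 9.02 and 7.70. Chrdl1, a secreted antagonist of bone morphogenetic proteins, stood at 425, 451 and 303 against 16.9, 1.80 and 10.1. Cbln1, Fmo2, Mc5r, Serpina3f, Mro, Marc1, Gm15222 and Kng2 completed the 12 named genes, with a log2 difference of 4.67 for Kng2. Cbln1, Fmo2, Mc5r, Serpina3f, Mro, Gm15222 and Il34 were at 0 in at least 1 metaphyseal-gated sum, and Chrdl1 and Marc1 at 1 UMI in 1 of them, so no fold is given for these. For each of the 12, every zero-count library lay above every metaphyseal-gated library.

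Niche factors, which support blood cells in the marrow, were mostly higher. Of 18 tested genes of 19 listed, 11 rose and 4 fell, and the median log2 difference was 1.81 beside -0.01 over all genes tested. Vcam1, the adhesion molecule for blood progenitors, stood at 2226, 2240 and 1562 CPM against 91.4, 92.0 and 107, a log2 difference of 4.24 ± 0.30. Il7, which B cell progenitors need, stood at 127, 135 and 93.6 against 7.03, 28.9 and 16.4, and Il15, a growth factor of natural killer cells, at 52.3, 57.4 and 61.7 against 2.81, 1.80 and 6.49. Csf1, the macrophage growth factor, stood at 419, 420 and 256 against 160.2, 206 and 119, a smaller log2 difference of 1.05 ± 0.16. Angpt1, Pltp and Cxcl14 also rose. The 4 that fell were Spp1, Tnc, Ptn and Tgfb1, of which Spp1 (osteopontin) and Tnc (tenascin C) are also matrix genes. Igf1, at 594, 600.4 and 1023 against 284, 229 and 534, did not pass.

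Adipocyte-lineage genes were listed as 20, of which 18 were tested, with 9 higher and 1 lower. Pparg and Cebpa, the transcription factors of adipocyte differentiation, stood at 117, 128 and 102 and at 349, 374 and 183 CPM, with log2 differences of 3.36 ± 0.24 and 2.92 ± 0.19. Hp (haptoglobin) stood at 5570, 5614 and 4071 against 125, 242 and 290, and Apoe (apolipoprotein E) at 4239, 4257 and 6338 against 434, 453 and 1305. Cebpd, Adipor2, Klf15 and Agt (angiotensinogen) rose as well. The gene that fell was Fabp5, the fatty acid binding protein used to mark septoclasts, at 38.1, 28.7 and 52.9 against 232, 487 and 157. The 2 listed genes too low to be tested were Plin1, at 0.49, 0 and 0.88 CPM in zero-count cells, and Cidec, at 0 in all 3 libraries, both of lipid droplets in mature fat cells. Plin2, a lipid droplet gene of many cell types, stood at 96.7, 74.7 and 61.4 against 88.6, 68.6 and 52.3 and did not pass, with a log2 difference of 0.08 ± 0.18. Against osteoblast-gated cells Plin2 was higher by 2.23 ± 0.19.

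Among 19 stromal transcription factors, 8 rose and 3 fell, with a median log2 difference of 0.11 beside -0.01 over all genes tested. Over all genes tested 12.8% rose and 15.1% fell, so the falls in this list were near that share. Ebf3, which marks marrow reticular cells, stood at 581, 553 and 205 CPM against 35.1, 57.7 and 36.7, a log2 difference of 3.01 ± 0.31. Foxc1, needed for the marrow niche, stood at 548, 530 and 282 against 153, 191 and 120, and Runx1 at 776, 781 and 330 against 205, 217 and 96.8. Ebf1, Ebf2, Snai2, Meis2 and Maf rose by smaller amounts. Sp7 (osterix), the osteoblast factor, fell by 1.27 ± 0.14 on the log2 scale, with 48.8, 59.6 and 63.3 against 110, 134 and 134, and Id1 and the Notch target Hey1 also fell. Runx2, the osteoblast master factor, had a log2 difference of -0.18 ± 0.13 and did not pass.

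Osteoblast-lineage genes were mostly lower, with 9 of 16 lower and 2 higher. Alpl, tissue-nonspecific alkaline phosphatase (chromosome 4, 137741733 to 137796384), stood at 320.9, 295 and 543 CPM against 1392, 1657 and 1412, a log2 difference of -2.10 ± 0.21 (adjusted p = 8.63e-06, edgeR's quasi-likelihood test). Spp1 stood at 3972, 3460 and 6912 against 33663, 26619 and 19500. Pth1r, the parathyroid hormone receptor, stood at 213, 223 and 169.8 against 541, 437 and 299. Dlx5, Omd and Bmp3 also fell. Dmp1 and Mepe, matrix genes of late osteoblasts and osteocytes, were called lower, but mainly through the metaphyseal libraries. Dmp1 stood at 2.44, 3.25 and 23.6 CPM against 363, 346 and 44.4, and its difference was 6.13 ± 0.36 less negative on the log2 scale in the Pdgfra-GFP library (interaction term). The 2 called higher were Bglap and Bglap2, by their sums. A Bglap UMI was nevertheless found in fewer zero-count than metaphyseal-gated cells after thinning, at 6.12, 9.35 and 69.9% against 31.1, 20 and 71.9%. In metaphyseal replicate 1, Bglap stood at 25.4 CPM in the 264 zero-count cells with all 4 genes of the Lepr set and at 5299 in the 53 cells with 3. Metaphyseal replicate 2 did not share this pattern. There Bglap stood at 626 CPM in the 252 cells with all 4 genes and at 244 in the 17 cells with 2, against 522 in all zero-count cells. In the Pdgfra-GFP library the whole list summed to 28788 CPM in zero-count, 36846 in metaphyseal-gated and 23023 in erythroid-gated cells, where Bglap at 7637, Col1a1 at 6473, Col1a2 at 4724 and Bglap2 at 3338 led it. In the metaphyseal libraries the list summed to 736 and 441 in erythroid-gated cells, against 14866 and 13971 in zero-count cells. In barcodes of at most 100 UMIs it summed to 36391, 41654 and 82414, above the zero-count cells in every library. The part of free RNA in this list's result was not tested.

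Metaphyseal matrix genes, the metalloproteinases and collagens of the growth-plate border, fell in 10 of 13 tested genes and rose in none. Mmp9 (gelatinase B) stood at 10.7, 36.3 and 143 CPM against 600.2, 897 and 720.1, and Mmp13 (collagenase 3) at 2613, 2270 and 1933 against 3784, 5636 and 2660. Zero-count cells thus carried Mmp13 at a level within about the same order as metaphyseal-gated cells, with a log2 difference of -0.96 ± 0.28. Col12a1 fell by 2.21 ± 0.14 on the log2 scale. Of 10 cell-cycle genes, 8 fell, and the summed level of the list was 144, 80.1 and 265 CPM against 583, 401 and 417. These falls rested mainly on the metaphyseal libraries. For the 8 genes the log2 difference was higher in the Pdgfra-GFP library by 1.60 (Cdk1) to 2.89 (Ccnb1), by the interaction term. Cdk1 and Ube2c did not pass the threshold for this term.

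Complement and acute-phase genes were higher in 12 of 16 tested genes. Serping1, the C1 inhibitor, stood at 1484, 1671 and 2034 CPM against 73.1, 135 and 300.5, a log2 difference of 3.35 ± 0.24. Kng1 stood at 510.0, 521 and 322 against 33.7, 70.4 and 23.5, and the complement component C4b at 281, 311 and 119 against 15.5, 28.9 and 16.7. C3, C1ra, C1s1, C2, Cfb, Serpina3g, Kng2, Cp and Clu also rose. Lcn2, at 3.42, 2.71 and 3.94 against 2.81, 5.41 and 5.05, did not pass. Of 9 tested genes of the insulin-like growth factor axis, 5 binding proteins rose and 1, Igfbp6, fell. Igfbp4 stood at 8133, 7722 and 7166 against 919, 1236 and 1456, and Igfbp3 at 676, 633 and 622 against 16.9, 30.7 and 32.2.

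Receptor genes rose in 11 of 16 and fell for Fgfr1. Pdgfra, which drives the GFP in the sorted library, stood at 223, 250.1 and 83.8 CPM against 57.6, 54.1 and 31.9, and H2B-GFP transcripts stood at 133 in the zero-count cells of that library and at 0 in both others. Il1r1, the interleukin 1 receptor, stood at 201, 179 and 82.4 against 19.7, 18.0 and 17.2, and Ghr, the growth hormone receptor, at 350.2, 348 and 225 against 40.8, 55.9 and 53.5. Of the osteoclast regulators, 3 rose and 4 fell. Tnfsf11 (RANKL), Csf1 and Il34, ligands that support osteoclasts, rose. Tnfrsf11b (osteoprotegerin, the RANKL decoy), Wnt5a, Sema3a and Ptgs2 fell. As background, Wnt5a and the prostaglandin synthase Ptgs2 are also known to promote osteoclast formation, while Sema3a restrains it. Tnfsf11 stood at 175, 185 and 117 against 75.9, 110.1 and 75.2, a log2 difference of 0.71 ± 0.20.

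Interferon-response genes were also higher in the zero-count cells than in metaphyseal-gated cells, in 19 of 25 tested genes with none lower. Bst2 (tetherin) stood at 627, 614 and 557 CPM against 145, 356 and 269, and Ifi47 at 56.7, 48.2 and 67.5 against 15.5, 12.6 and 15.03. Ifit3, at 12.2, 9.20 and 23.5 against 25.3, 10.8 and 27.3, did not pass. The whole list summed to 1905, 1867 and 1995 CPM against 717, 993 and 1007. In erythroid-gated cells it summed to 1867, 1094 and 847, with Isg15 the most abundant at an average of 444 and Bst2 at 76.0. In barcodes of at most 100 UMIs it summed to 1597, 1489 and 1053, and the part of free RNA in the result was not tested. Metaphyseal-gated cells were not selected on the 3 interferon genes, whereas zero-count cells held 0 of them by the gate.

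The strongest falls were cartilage genes, and they depended on how the metaphyseal cells were chosen. Snorc, Col9a3, Col2a1, Hapln1, Acan, Ihh, Mepe, Cnmd, Col9a2 and Ptgs2 were the 10 named genes, with a log2 difference of -6.76 for Snorc. Ihh, Mepe, Cnmd and Ptgs2 were at 0 in at least 1 zero-count sum, so no fold is given for them here. Acan, the aggrecan of cartilage, stood at 579, 543 and 480.2 CPM in the metaphyseal-gated sums, and Col2a1, type II collagen, at 5263, 3680 and 9438. All 10 chondrocyte markers tested fell. Mepe rested on metaphyseal replicate 2, with 32.3, 617 and 3.97 in the metaphyseal-gated sums. With 3 of 4 genes required in the metaphyseal gate, Snorc was at 0.65, Col9a3 at 0.32 and Col9a2 at 0.36, and Col2a1, Hapln1, Acan and Cnmd stayed lower but did not pass. With metaphyseal-gated cells limited to at most 1 UMI of Acan, chosen after these values were seen, 7 of the 10 named genes reversed. That limit removes Acan-bearing cells from 1 side alone, so the reversal of Acan and of genes that go with it follows from the choice and supports nothing. The summed chondrocyte list in zero-count cells was 56.2, 91.0 and 2976 CPM, against 7460, 8198 and 12442 in metaphyseal-gated and 3289, 55.1 and 2707 in erythroid-gated cells, so the level in the Pdgfra-GFP library was close to that of cells that should lack it. Barcodes of at most 100 UMIs held the list at 2300, 2912 and 10043.

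**Figure D2:**
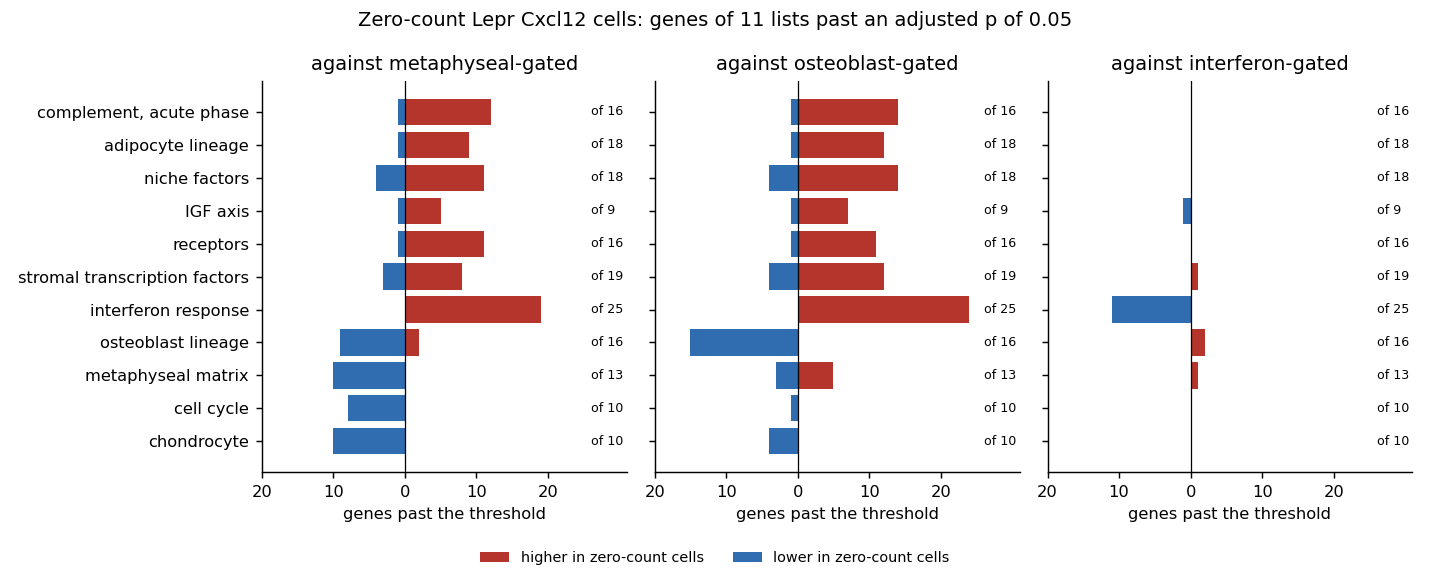
Number of genes (x axis) of 11 gene lists (y axis) that were higher (red, to the right) or lower (blue, to the left) in zero-count cells at an adjusted p of 0.05, in the comparison with metaphyseal-gated, osteoblast-gated and interferon-gated cells (the number tested stands beside each bar). Counts are with TMM scaling, and with library sizes alone the cell-cycle list against osteoblast-gated cells had 2 higher and 0 lower in place of 0 and 1. Complement, adipocyte-lineage and niche lists lean to the right in the first 2 panels, and the interferon-response list leans to the left with 11 of 25 in the last.

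Other cell types were looked for by their markers. The 10 endothelial markers summed to 83.5, 80.1 and 107 CPM in zero-count cells against 10716, 10128 and 9315 in endothelial-gated cells. The 10 haematopoietic markers summed to 76.7, 107 and 152, with S100a9 the most abundant. Erythroid markers summed to 6865, 581 and 3268, most of it Hbb-bs at 3936, 332 and 1483, and 5 of 6 tested erythroid genes were called higher than in metaphyseal-gated cells. In metaphyseal replicate 1, 3 cells held 92.6% of the thinned Hbb-bs UMIs of 343 cells, and 77.6% of the cells had none. Globin is therefore a matter of few cells in that library.

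Against osteoblast-gated cells, which held at least 3 of Col22a1, Ifitm5, Smpd3 and Bglap3 (188, 158 and 1613 cells), 3668 genes or 29.7% were higher and 3610 or 29.2% were lower. This split depended on the scaling. The TMM factors were 1.24, 1.25 and 1.09 for zero-count and 0.721, 0.690 and 0.562 for osteoblast-gated sums. With library sizes alone, an alternative chosen after the factors were seen, 8420 genes were higher and 1312 lower, and the median log2 difference over all genes was 0.91 in place of 0.03. Changes in this comparison are therefore relative to that median. Osteoblast-lineage genes fell in 15 of 16, and Mepe was the exception that did not pass. With library sizes alone 13 fell and 1 rose. The 6 named lower genes were Pacsin1, Cgref1, Entpd3, Cthrc1, Prss35 and Gal. Cthrc1, a secreted collagen-associated protein, stood at 57.6, 42.8 and 103 CPM against 1729, 1697 and 1506. Lpl stood at 5451, 5706 and 4958 against 4.57, 6.31 and 33.1, a log2 difference of 7.74 ± 0.58, and Gas6 differed by 6.73 ± 0.43. Gm16685, Gzme, Csmd1 and Phactr1 were also among the 6 named higher genes, but were at or near 0 in osteoblast-gated cells, so no fold is given. Gm16685, for example, stood at 75.7, 68.8 and 36.7 against 0.25, 0 and 0.05.

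In the same comparison interferon-response genes rose in 24 of 25, complement and acute-phase genes in 14 of 16 and niche factors in 14 of 18, and these counts were the same with library sizes alone. Adipocyte-lineage genes rose in 12 of 18, and in 15 with library sizes alone. Sp7 differed by -2.76 ± 0.13 on the log2 scale, and by -1.90 with library sizes alone. Other directions turned with the scaling. Runx2 was called lower at -0.56 with TMM and higher at 0.31 with library sizes alone. Pdgfra stood at 223, 250.1 and 83.8 against 89.3, 101 and 46.9 CPM, higher in all 3 libraries. Its log2 difference after TMM was 0.28 ± 0.13, which did not pass, and with library sizes alone it was 1.15 and passed. Of 16 immediate early genes, 13 were lower and 0 higher with TMM, whereas 4 were lower and 6 higher with library sizes alone. Their summed level was 7521, 7711 and 2084 CPM against 7517, 6284 and 2197, so no direction is given for this list. Osteoblast-gated cells had median depths of 21628.5, 20737.5 and 11374 UMIs, and 4375 genes were called after thinning.

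The last comparison split the Lepr Cxcl12 cells themselves. The gate without its interferon condition held 756, 702 and 4708 cells, of which zero-count cells made up 45.4, 44.2 and 43.6%. With every cell thinned to 2000 UMIs, 69.2, 68.1 and 57.7% of 756, 702 and 4409 such cells held 0 UMIs of the 3 genes, so the share at 0 depends on depth. Another 194, 172 and 1059 cells had 1 UMI of the 3 genes, and the 219, 220 and 1596 interferon-gated cells had at least 2. Interferon-gated cells were somewhat deeper, with medians of 6223, 6215 and 3903 UMIs. The contrast is the one that the gate used, so its values are a description. Of the 12344 genes, 13 were higher (0.105%) and 21 lower (0.17%) in zero-count cells, and 708 had an unadjusted p under 0.05. The total of 34 became 18 without metaphyseal replicate 1, 5 without metaphyseal replicate 2 and 0 with no library block, where 256 genes had an unadjusted p under 0.05. With only these 2 populations in the fit, 542 genes passed.

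The 21 lower genes were led by interferon-induced genes other than the 3 of the gate. Ifit3, an antiviral RNA-binding protein, stood at 12.2, 9.20 and 23.5 CPM against 78.3, 72.2 and 138, a log2 difference of -2.60 ± 0.32. Usp18, which removes Isg15 from proteins, stood at 10.7, 10.3 and 18.9 against 47.5, 37.2 and 58.9, and Isg15, the ubiquitin-like modifier itself, at 170.5, 174 and 245 against 565, 475 and 575. Ifi44, Ifi47 and the GTPase Igtp completed the 6 named genes, and every zero-count library lay below every interferon-gated library for each of the 6. In erythroid-gated cells Isg15 stood at 643, 322 and 368 CPM, above the zero-count cells of the same library each time. After thinning, an Isg15 UMI was found in 25.7, 24.5 and 30.3% of zero-count and in 46.2, 21.4 and 38.5% of erythroid-gated cells, so metaphyseal replicate 2 had the other order, with 14 erythroid-gated cells. Other cells had lower shares after thinning, with 14.8, 14.5 and 17.0% of metaphyseal-gated cells. In haematopoietic-gated cells, with at least 5 UMIs of Laptm5 and Tyrobp together, the shares were 11.5, 10.6 and 19.8%. The part of free RNA in the Isg15 level was not tested. Of the whole interferon-response list, 11 of 25 fell and none rose, with a median log2 difference of -0.99. Bst2, at 627, 614 and 557 against 879, 786 and 659, and Psmb8, an immunoproteasome subunit, did not pass.

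Promoters of genes from this contrast are shown because interferon-activated factors bind a known element, the interferon-stimulated response element, searched here on both strands as TTTC, any 2 bases and TTTC again. Sequences are RefSeq promoters of build GRCm38.p6, 250 bases before to 50 bases after the start, written 5′ to 3′ on the gene's strand, with the bases of a match in capitals. Ifit3 at chr19:34583279-34583578 (plus strand) held 2 matches, Isg15 at chr4:156200769-156201068 (minus strand) held 3 that overlap, and Igtp at chr11:58199306-58199605 (plus strand) held 1.
Ifit3: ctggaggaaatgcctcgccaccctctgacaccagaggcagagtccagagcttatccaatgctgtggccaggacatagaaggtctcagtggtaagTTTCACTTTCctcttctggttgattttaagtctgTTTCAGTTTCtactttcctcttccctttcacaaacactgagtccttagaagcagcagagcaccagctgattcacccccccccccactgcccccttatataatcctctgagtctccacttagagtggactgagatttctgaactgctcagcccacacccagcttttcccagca
Isg15: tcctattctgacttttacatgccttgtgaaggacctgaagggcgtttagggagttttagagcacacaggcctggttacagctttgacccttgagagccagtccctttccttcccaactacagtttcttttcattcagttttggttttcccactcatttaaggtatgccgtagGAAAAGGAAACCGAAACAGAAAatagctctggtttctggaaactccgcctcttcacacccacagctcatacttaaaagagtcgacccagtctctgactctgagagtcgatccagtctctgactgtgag
Igtp: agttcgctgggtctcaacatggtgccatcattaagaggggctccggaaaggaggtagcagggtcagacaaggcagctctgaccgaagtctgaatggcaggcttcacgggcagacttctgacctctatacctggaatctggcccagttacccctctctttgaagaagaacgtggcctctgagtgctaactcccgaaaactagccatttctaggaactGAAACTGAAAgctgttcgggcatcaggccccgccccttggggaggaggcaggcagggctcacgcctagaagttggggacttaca
The letters were present in 3.44% of all 32851 promoters. Of the 21 lower genes, 15 had a promoter among these, and 8 of the 15 genes (53.3%) held the letters in at least 1 promoter. The 8 were Ifi203, Ifi211, Ifit3, Igtp, Irgm1, Irgm2, Isg15 and Stat2. The first share counts promoters and the second counts genes, so the 2 are not on the same footing. The letters were in 0 of the 9 matched genes among the 13 higher genes and in 0 of the 7 marker genes. A match is a description of the letters and not a site shown to be bound.

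The 13 higher genes did not share a single list. Of these, 9 met the rule for named genes, which were Acta2, Spata13, Ppfibp2, Nav2, Slc20a2, Alpl, Sp7, Col12a1 and Raph1. Alpl stood at 320.9, 295 and 543 CPM in zero-count cells against 140.4, 186 and 195 in interferon-gated cells, a log2 difference of 1.14 ± 0.20. Sp7 stood at 48.8, 59.6 and 63.3 against 27.1, 41.4 and 29.9, and Acta2, smooth muscle actin, at 27.8, 33.0 and 72.3 against 14.6, 14.7 and 19.3. Every zero-count library lay above every interferon-gated library for all 3. Of the other 4 higher genes, named after their values were seen, Bmp3 was low everywhere and Cytl1, Npy and Cilp were carried by the Pdgfra-GFP library. Cytl1 stood at 0, 0 and 312 against 0, 0 and 22.4. No niche, adipocyte-lineage, receptor or complement gene passed in either direction.

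Levels varied with the interferon count. With 0, 1, 2 to 3 and at least 4 UMIs of the 3 genes, Ifit3 ran through 12.2, 22.0, 35.1 and 157 CPM in metaphyseal replicate 1, and Alpl through 321, 261, 154 and 115. In the Pdgfra-GFP library Alpl ran through 543, 282, 239 and 150.4, and in metaphyseal replicate 2 through 295, 234, 212 and 141. Wif1, a secreted Wnt inhibitor that is a metaphyseal gate gene, ran through 367, 377, 184 and 175, through 396, 252, 236 and 156 and through 804, 376, 323 and 226, so it did not fall from 0 to 1 UMI in metaphyseal replicate 1. The Alpl order did not hold in all libraries among cells with all 4 genes of the Lepr set. There Alpl ran through 145, 194, 129 and 101 in metaphyseal replicate 1 and through 155, 190, 130.4 and 146 in replicate 2, while it ran through 269, 171, 187 and 127 in the Pdgfra-GFP library. Requiring 3 of the 4 genes in the gate reduced the Alpl log2 difference from 1.14 to 0.72. Cells that just meet the Lepr set therefore moved with this difference, and their part in it was not tested beyond that.

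**Figure D3:**
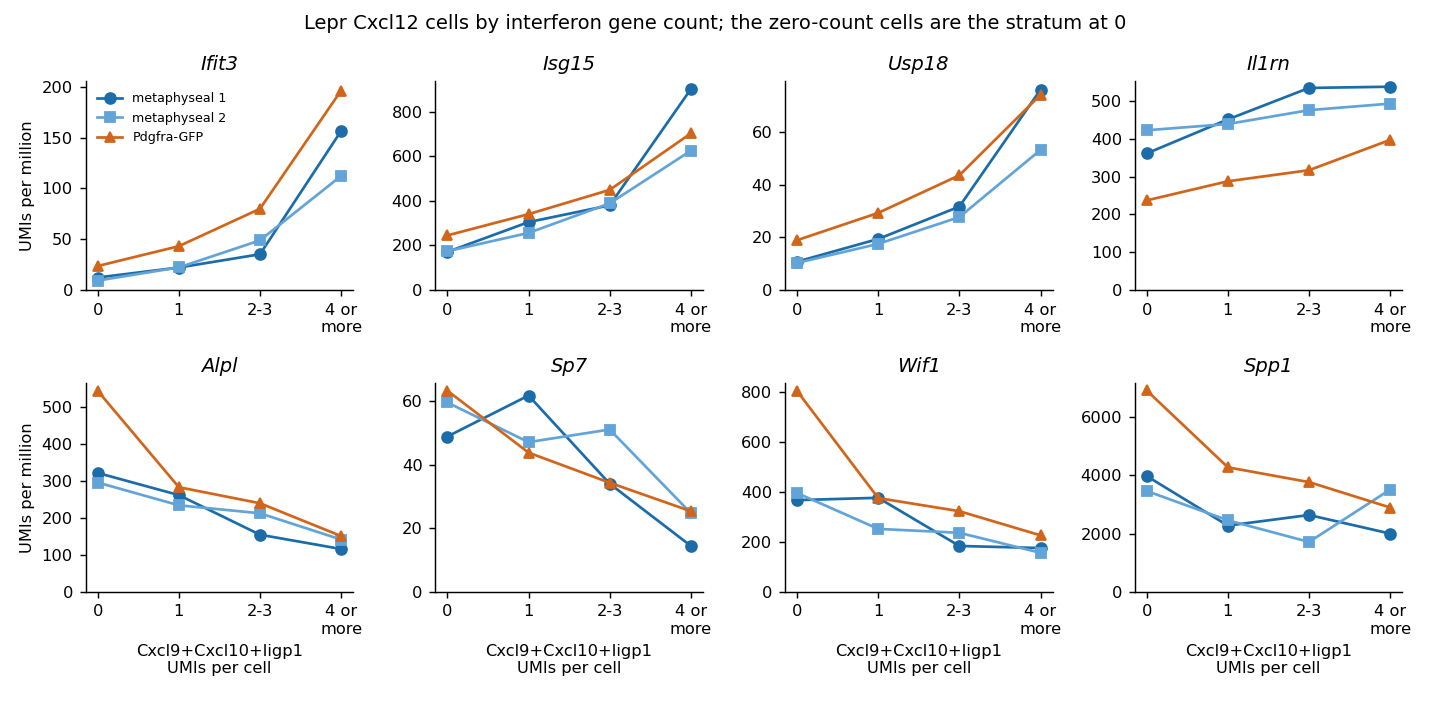
Levels of 8 genes (y axis, CPM) in Lepr Cxcl12 cells grouped by their summed UMIs of Cxcl9, Cxcl10 and Iigp1 (x axis), with 1 line per library; the zero-count cells are the leftmost group. Ifit3, Isg15 and Usp18 rise to the right in all 3 libraries, and Alpl falls from 321, 295 and 543 at 0 to 115, 141 and 150.4 at 4 or more.

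Zero-count cells were not uniform. Variation among them was measured as the variance beyond counting error over the squared mean of UMIs thinned to 2000 per cell, in 474 genes with at least 0.5 thinned UMIs, whose median was 0.175. Among the highest were Hbb-bs at 104.8, Col1a1 at 40.3, Mgp at 6.08, Col1a2 at 5.10, Jun at 4.64, Spp1 at 4.53, Fos at 3.65, Junb at 3.46, Gadd45g, Mmp13, Ccn1, Cebpb, Cited2 and Col8a1. Col1a1, like globin, rested on few cells, since 3 cells held 57.2 and 55.2% of its thinned UMIs in the metaphyseal libraries. Spp1 was spread more widely, with 24.5% of cells at 0 and 18.3% of UMIs in the top 3 cells of metaphyseal replicate 1.

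Levels of the adipocyte-lineage genes Lpl, Adipoq and Hp and of the metaphyseal gate genes Wif1 and Kcnk2 varied with the Alpl count. Cells were grouped by their thinned Alpl count, after the values were seen, into 0, 1 to 2 and at least 3 UMIs. The last group held 21, 16 and 235 cells, which was 6.12, 5.16 and 12.4% of the zero-count cells. Its cells were deeper before thinning, with medians of 6221, 6018.5 and 6273 UMIs against 5317, 5234 and 3478 in the group at 0. The part of mixed droplets in these groups was not tested. From 0 to at least 3 Alpl UMIs, mean thinned Lpl went from 14.3 to 4.10, from 13.96 to 2.50 and from 15.3 to 1.97 UMIs per cell in the 3 libraries. Adipoq went from 5.61 to 2.52, from 5.76 to 1.38 and from 11.1 to 1.83, and Cxcl12 from 49.1 to 28.7, from 46.2 to 31.9 and from 48.2 to 23.01. Cxcl12 thus stayed well above 0 in the cells with the most Alpl, as the gate required. In the opposite direction the gate gene Wif1 went from 0.261 to 2.90, from 0.251 to 2.94 and from 0.485 to 4.66, and Spp1 from 3.52 to 15.95, from 3.65 to 19.6 and from 6.86 to 24.3. Postn, another metaphyseal gate gene, was low and did not rise in metaphyseal replicate 1. It went from 0.004 to 0, from 0.004 to 0.375 and from 0.050 to 0.489. Ibsp, a mineral-binding sialoprotein, did not follow Spp1, with 4.09 to 3.57, 3.85 to 5.56 and 11.02 to 2.78. Other osteoblast genes did not all follow Alpl. Sp7 was higher with more Alpl in all 3 libraries. Runx2 went from 0.412 to 0.571, from 0.394 to 0.375 and from 0.168 to 0.213. Bglap went from 0.045 to 0.143 and from 0.351 to 0.188 in the metaphyseal libraries, where Col1a1, which rested on few cells, was highest in the group with 1 to 2 Alpl UMIs. Neither gene is read in the Pdgfra-GFP library, since erythroid-gated cells held both at higher CPM there.

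**Figure D4:**
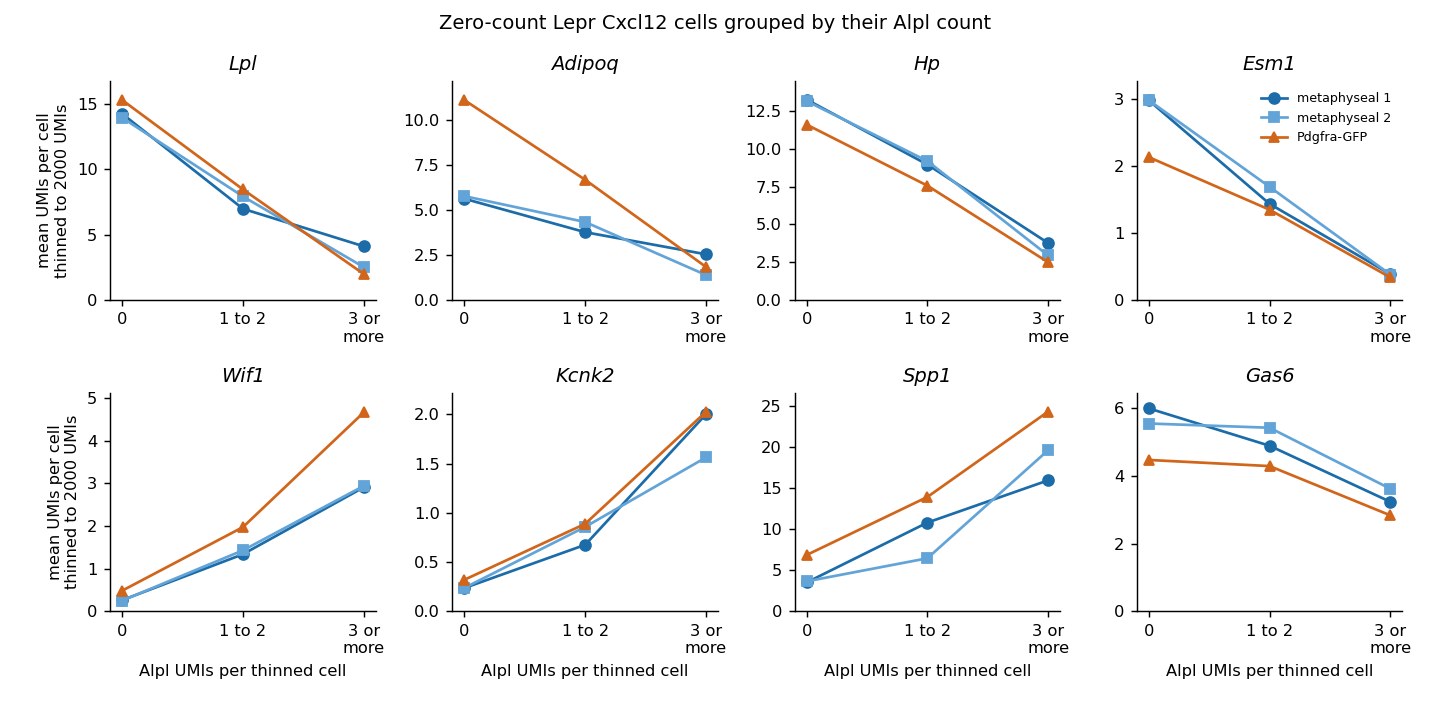
Mean UMIs per cell after thinning to 2000 (y axis) of 8 genes in zero-count cells with 0, 1 to 2 or at least 3 thinned Alpl UMIs (x axis), with 1 line per library. Lpl, Adipoq, Hp and Esm1 fall and Wif1, Kcnk2 and Spp1 rise with Alpl in all 3 libraries, and Gas6 falls less, from 6.00 to 3.24 in metaphyseal replicate 1.

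Correlations over cells, taken within a library and averaged over the 3, show the same gene pairs. The points are cells of 1 library thinned to 1 depth, so they share its processing. Pearson's r over 343, 310 and 1890 cells averaged 0.60 for Lpl with Cxcl12, 0.60 for Lpl with Adipoq, 0.55 for Alpl with Wif1 and 0.51 for Wif1 with Kcnk2. Alpl with Lpl was at -0.54 and Wif1 with Lpl at -0.53. The immediate early genes Jun and Fos, at 0.65, formed a block whose r lay near 0 with the genes of both directions. Mean thinned Fos was nevertheless lower in cells with more Alpl. From 0 to at least 3 Alpl UMIs it went from 3.96 to 2.10, from 4.10 to 1.56 and from 0.988 to 0.472. Fos itself stood at 3.47, 3.72 and 0.870 thinned UMIs per cell, so the metaphyseal libraries were higher than the sorted library.

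**Figure D5:**
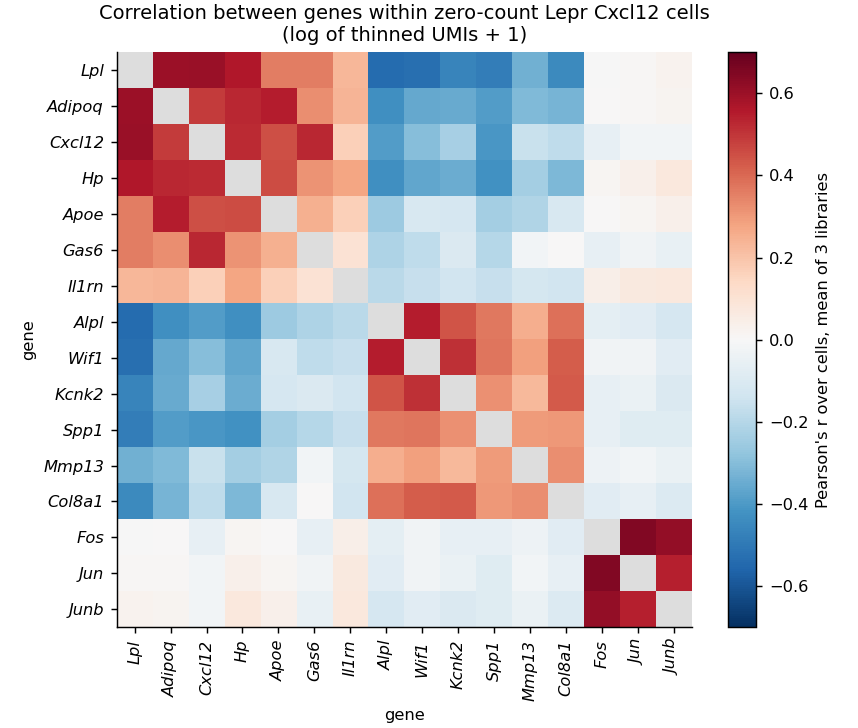
Pearson's r between 16 genes over zero-count cells (both axes list genes; colour is r of log thinned UMIs plus 1, mean of 3 libraries; the diagonal is grey). Lpl, Adipoq, Cxcl12 and Hp form a red block, Alpl, Wif1, Kcnk2 and Spp1 another, with blue between them, and Fos, Jun and Junb form another block near 0 with the other 13 genes.

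Cells near the gate's edges had more Alpl and less Lpl. Of the zero-count cells, 77.0, 81.3 and 49.1% held all 4 genes of the Lepr set, and 7.58, 5.48 and 17.5% held only 2. The cells with 2 genes had Alpl at 1124, 1393 and 1133 CPM and Lpl at 408, 725 and 1209, whereas cells with all 4 had Alpl at 145, 155 and 269 and Lpl at 6910, 6730 and 7033. Just outside, the 8, 9 and 248 cells with 1 gene of the set had Alpl at 1647, 1141 and 1530 and Cxcl12 at 1978, 8508 and 5968. Few cells lay near the Cxcl12 limit, with 2, 2 and 49 cells at 10 to 14 UMIs and 3, 4 and 90 cells at 5 to 9. The median Cxcl12 count was 125, 124 and 78 UMIs.

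The difference between zero-count and metaphyseal-gated cells was itself compared between the Pdgfra-GFP and the metaphyseal libraries with an interaction term. Of 13209 genes tested, 189 differed, which is 1.43%, and 143 of them had a positive term, that is a larger rise, a smaller fall or a rise in place of a fall in the Pdgfra-GFP library. Spp1 differed by 1.59 ± 0.21, Alpl by 0.99 ± 0.20 and Fos by -1.15 ± 0.20 on the log2 scale. Spp1 and Alpl fell in every library and fell less in the sorted one. Gas6 differed by -0.95 ± 0.20, Hp by -1.10 ± 0.28 and Apoe by -0.91 ± 0.18, so these 3 rose less in the sorted library. The group has only 1 Pdgfra-GFP library, and its spread is assumed to match that of the metaphyseal ones.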

How the data were processed

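The authors deposited, per library, a matrix of raw UMI counts of 55422 genes, and per the labels the reads were made with the 10x Chromium system. The submitters' processing notes name STAR 2.7.3a, fastp 0.20, bcl2fastq, Cell Ranger and build mm10. No normalization had been applied, so depth differs between cells. Cells were gated on raw counts, and the cells and gene lists were chosen with earlier results of these data known. Counts were summed per library and population and tested with edgeR 4.0.16 (quasi-likelihood, TMM, filterByExpr, library block, Benjamini-Hochberg over all genes, threshold 0.05) in R 4.3.3, with gate genes left out. The fit held zero-count, interferon-gated, metaphyseal-gated and osteoblast-gated sums of all libraries. All populations of a library were drawn from 1 suspension, which pairs them. Errors are SE, from the fold change and its F. Named genes had at least 20 CPM in the higher population, passed the threshold and changed the same way in all 3 libraries. The largest were taken, up to 12 higher and 10 lower (metaphyseal-gated), 6 and 6 (osteoblast-gated) and 10 and 6 (interferon-gated). The tests were tested on simulated data. Scrublet marked doublets, which stayed in. DESeq2 1.42.0, thinning to 2000 UMIs, other gates, library sizes without TMM and left-out libraries were alternatives. Some genes are not reported here.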

Additional observations from a re-analysis of the deposited data

Results flagged for a closer look

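These genes are named because the difference between zero-count and metaphyseal-gated cells itself differed between the Pdgfra-GFP library and the metaphyseal libraries, by the interaction term of edgeR's quasi-likelihood test. Values are the log2 difference in the Pdgfra-GFP library minus that in the metaphyseal libraries. Lpl, the lipoprotein lipase, was at -1.24. Cartilage genes were at 5.33 for Snorc, 7.35 for Col9a3, 6.08 for Col2a1, 6.16 for Hapln1, 5.86 for Acan, 6.81 for Cnmd and 4.93 for Col9a2. Cnmd lacked UMIs in at least 1 zero-count sum, so its value is not read as an exact size. Mepe, a matrix protein of bone, was at 8.69. It too lacked UMIs in at least 1 zero-count sum, and its metaphyseal-gated level rested mainly on 1 metaphyseal library. The Mepe value is therefore not read as an exact size. In the Pdgfra-GFP library the summed chondrocyte markers stood at 2976 CPM in zero-count cells and at 2707 in erythroid-gated cells, and the part of free RNA in these values was not tested. Genotype, sort, region, depth and chemistry cannot be told apart with 1 Pdgfra-GFP library.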

How the results depend on the processing

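Against metaphyseal-gated cells, 3447 genes passed, and 2089 after thinning to 2000 UMIs. Leaving out a library gave 2282 to 2948, the lowest without metaphyseal replicate 2. Against osteoblast-gated cells, 7278 genes passed, 4375 after thinning and 6190 to 6463 with a library left out. Against interferon-gated cells, 34 passed, with 275 under no filter on low counts, 542 with only these 2 populations fitted, 20 with 3 of 4 Lepr-set genes required, 69 after thinning and 5 to 35 with a library left out. The causes were not tested. With library sizes in place of TMM, chosen after seeing the data, 3389, 9732 and 39 genes passed in the same order, of which 2979, 5564 and 34 were also called with TMM. Without the library as a replicate block, 1593 genes passed against metaphyseal-gated cells and 0 against interferon-gated cells, where 256 had an unadjusted p under 0.05. With the block, the DESeq2 Wald test called 44 in the latter comparison. The interaction gave 189 genes, and 336 with no filter. It could not be refitted without a metaphyseal library, since no residual degrees of freedom remain. The number of cells, 2706, became 2803 with Cxcl12 of at least 5 UMIs, 2303 with 3 of 4 Lepr-set genes and 4131 with an interferon sum of at most 1.

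Of 414 values for named genes against metaphyseal-gated cells, 392 kept their direction and call, 12 lost the call and 10 reversed. With 3 of 4 genes in the metaphyseal gate, Snorc was at 0.65, Col9a3 at 0.32 and Col9a2 at 0.36. With at most 1 Acan UMI, chosen after seeing the data, Snorc was at 2.31, Col9a3 at 2.06, Col2a1 at 0.24, Hapln1 at 1.79, Acan at 2.20, Cnmd at 2.03 and Col9a2 at 1.87. Cnmd was at 0 in at least 1 zero-count sum, so its value is not read as an exact size. Against interferon-gated cells 64 of 240 values lost the call, and against osteoblast-gated cells 0 of 192 did.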
